A study of Mus musculus with 7 samples.

Results

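The genes described here are 10 members of the amino acid response driven by activating transcription factor 4 (ATF4), with Pck2 at their head: Pck2, Atf4, Asns, Trib3, Psat1, Phgdh, Shmt2, Mthfd2, Ddit3 and Chac1. They were taken by name from a table of 55487 genes, in which 11 entries carried 1 of these names. The additional entry was a second Ddit3 identifier of 105 exon bases with 0 counts in all 7 libraries. The list was chosen with measured values of the same 2 groups already known, so the levels and fold changes of the 10 genes are given as a description.

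Total RNA was sequenced from brown adipose tissue, the heat-producing fat, of 7 NOD/ShiLtJ mice, an inbred strain that develops autoimmune diabetes. In the CB-100 group, 4 mice had received 1.5 mg/kg of the fraction above 100 kDa of buffer conditioned by brown adipocytes, injected under the skin for 7 days. In the sham group, 3 mice had received KRBH buffer without it. The labels place treatment at a blood glucose of 190 to 230 mg/dL and tissue collection 2 to 8 weeks after injection, without the week of each mouse. Every CB-100 title carries the code nd and every sham title the code d, which the labels do not spell out, so that whatever the code marks cannot be told apart from the injection. Sex was not given. By their Xist and Y-linked transcripts, replicate 3 of each group was male and the other 5 mice were female. Library totals ran from 10815101 to 28528471 counts.

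ATF4 is the transcription factor of the integrated stress response. Kinases that sense a lack of amino acids, misfolded protein in the endoplasmic reticulum, double-stranded RNA or a lack of heme phosphorylate the initiation factor eIF2, which lowers general protein synthesis while translation of the Atf4 transcript rises. The factor then binds composite elements shared with C/EBP proteins and induces amino acid synthesis, amino acid import, tRNA charging and, later, feedback regulators. Because ATF4 is controlled largely by translation, the level of its mRNA is only a partial measure of it. Pck2 encodes the mitochondrial phosphoenolpyruvate carboxykinase, which makes phosphoenolpyruvate from oxaloacetate inside mitochondria and is a known ATF4 target. Its cytosolic paralog Pck1 is under hormonal control and serves glyceroneogenesis in fat.

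The upstream sequences of the genes were read because many ATF4 target genes carry such elements. RefSeq windows on GRCm38.p6 covering 250 bases before and 50 bases after the start site were available for all 10 genes. The core of the composite element was searched on both strands as TGATGNAA. It occurred in 4 of the 10 genes, against 3.97% of all 32851 windows in the table. Here and below, the 10 are counted by gene and the background by window, so the units differ. The site lay at -23 to -16 in Asns, on the strand of the gene, at -193 to -186 in Chac1 and at -103 to -96 in Pck2, both on the opposite strand. In Trib3 it lay 14 to 21 bases beyond the RefSeq start base, which is still before the start of the GENCODE gene model. The sequences around the 3 sites before the start are shown with the match in capitals, each read 5′ to 3′ along the gene. The Asns stretch is limited to 30 bases because GENCODE places it in exon 1.
Pck2, chr14:55540138-55540195, plus strand: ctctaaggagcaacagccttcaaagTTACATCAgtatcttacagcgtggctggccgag
Chac1, chr2:119351024-119351081, plus strand: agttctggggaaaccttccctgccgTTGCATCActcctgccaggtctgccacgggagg
Asns, chr6:7693214-7693243, minus strand: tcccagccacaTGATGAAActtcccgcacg
The capitals of Pck2 and Chac1 are the reverse complement of the searched core. A looser core, TGNNGCAA, was added after the sequences had been read and overlaps the first where its sixth base is C. It was present in 3 of the 10 genes, Chac1, Psat1 and Trib3, against 11.4% of all windows. In Chac1 it matched at -250 to -243 and -230 to -223 and again at the site of the first core. The sites at -136 to -129 in Psat1 and at -33 to -26 in Trib3 are shown, again in capitals.
Psat1, chr19:15925163-15925220, minus strand: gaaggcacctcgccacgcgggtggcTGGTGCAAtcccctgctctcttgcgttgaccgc
Trib3, chr2:152344061-152344118, minus strand: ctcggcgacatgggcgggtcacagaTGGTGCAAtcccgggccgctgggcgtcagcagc
A match gives the letters of the window only, and no binding was measured. Of the 4 genes with the first core, the groups did not overlap for Pck2 and Trib3 and overlapped for Asns and Chac1. Over all tested genes, the groups did not overlap for 23.3%. As the 10 genes were chosen with measured values known, nothing is read from this count.

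Pck2 was the gene of the 10 with the largest difference. Expression is given in CPM, the count of a gene scaled to a common library total. Pck2 (ENSMUSG00000040618, GRCm38 14:55540266-55551242, plus strand) was at 14.3, 21.1, 15.2 and 14.4 CPM in CB-100 replicates 1 to 4 and at 95.3, 73.4 and 126 CPM in sham replicates 1 to 3. Every CB-100 library lay far below every sham library, and 3 of the 4 CB-100 libraries lay within 1 CPM of each other. The means were 16.3 ± 3.26 CPM (SD, n = 4) and 98.3 ± 26.4 CPM (SD, n = 3), and the fitted log2 change, CB-100 minus sham, was -2.60 with a standard error (SE) of 0.22, which is 6.06-fold lower in the CB-100 mice. The gene model Gm10876 lies on the opposite strand within Pck2, shares 53 exonic bases with it and had at most 1 count in any library.

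Pck1 did not follow Pck2. Its level was 2773, 2169, 1948 and 2728 CPM in the CB-100 mice and 2145, 3515 and 1985 CPM in the sham mice, with a log2 change of -0.08 (SE 0.29). The groups overlapped throughout. A ratio of both genes within a library does not depend on scaling between libraries. There were 194, 103, 128 and 190 Pck1 counts per Pck2 count in the CB-100 libraries, against 22.5, 47.9 and 15.7 in the sham libraries. The lowest CB-100 ratio was above the highest sham ratio, and the log2 ratio of Pck2 to Pck1 differed by -2.53.

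**Figure D1:**
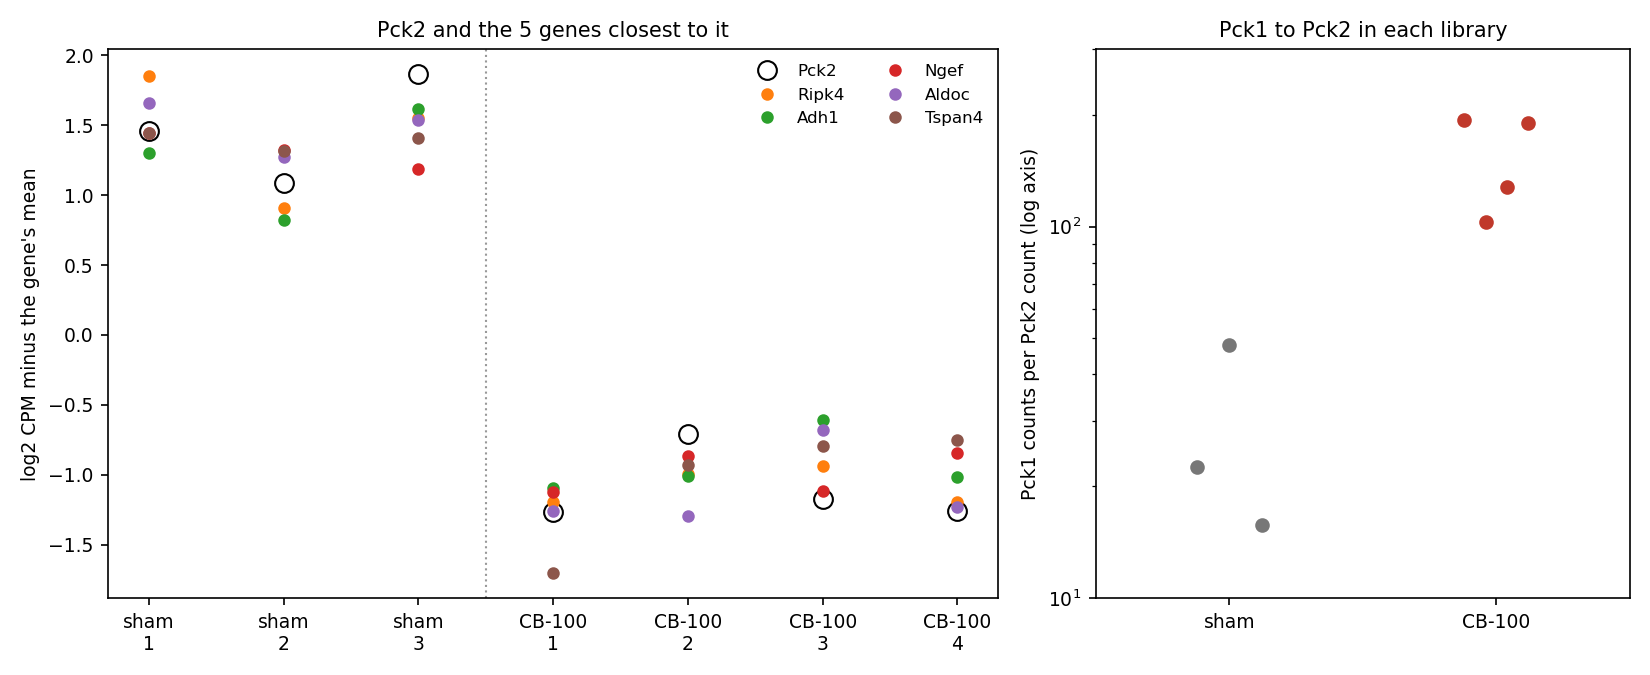
Left, log2 CPM of Pck2 (open circles) and of the 5 genes with the closest profile in each library, centred on the mean of each gene; right, Pck1 counts per Pck2 count in each library on a log axis. Pck2 is above its mean in all 3 sham libraries and below it in all 4 CB-100 libraries, and the ratio runs from 103 to 194 in the CB-100 libraries and from 15.7 to 47.9 in the sham libraries.

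Atf4 itself (15:80255184-80257541, plus strand) differed little. It was at 52.7, 64.0, 51.9 and 71.9 CPM in the CB-100 mice and at 75.0, 65.9 and 57.0 CPM in the sham mice. The groups overlapped, and the log2 change was -0.13 (SE 0.17). These are transcript levels, and ATF4 protein was not measured.

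Among the 10 genes, Shmt2 was the only enzyme around serine and folate with separate groups. Shmt2 (10:127517123-127522444, minus strand), the mitochondrial serine hydroxymethyltransferase that passes a carbon unit from serine to folate, was at 17.2, 15.4, 15.4 and 13.3 CPM in the CB-100 mice and at 23.5, 30.6 and 24.1 CPM in the sham mice. Its spread within each group was narrow, and the log2 change was -0.77 (SE 0.16), or 1.70-fold lower. Its end shares 32 bases with Ndufa4l2 on the opposite strand, which had 70 to 324 counts per library.

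Phgdh (3:98313170-98339990, minus strand), the first enzyme of serine synthesis from glycolysis, spread widely within both groups. It was at 20.3, 28.5, 41.3 and 6.56 CPM in the CB-100 mice and at 28.3, 52.1 and 81.1 CPM in the sham mice. The groups overlapped, and the log2 change of -1.16 carried an SE of 0.56. Its counts were not whole in any of the 7 libraries, so that some of its reads may be shared with other genes and its level is uncertain. Psat1 (19:15904678-15947337, minus strand), the next enzyme of the same route, was at 2.29, 4.11, 2.66 and 4.65 CPM against 1.46, 6.60 and 2.91 CPM. Sham replicates 1 and 2 enclosed all CB-100 values, and the log2 change was -0.07 (SE 0.48). Mthfd2 (6:83305691-83325908, minus strand), the mitochondrial methylene-tetrahydrofolate dehydrogenase often induced in growing cells, was near the limit of measurement, at 0.791 to 1.14 CPM in the CB-100 mice and 0.729 to 1.17 CPM in the sham mice. These values rest on 9 to 19 counts per library, and no difference was detectable at this depth (log2 change -0.0044, SE 0.36).

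Asns and Trib3 were lower on average. Asns (6:7675169-7693254, minus strand), which makes asparagine and is the classical reporter of amino acid shortage, was at 27.8, 20.7, 19.7 and 25.8 CPM in the CB-100 mice and at 26.5, 36.6 and 37.2 CPM in the sham mice. CB-100 replicate 1 lay above sham replicate 1, and the log2 change was -0.51 (SE 0.18). Trib3 (2:152337422-152344032, minus strand), a pseudokinase that feeds back on ATF4, was at 14.5, 11.3, 15.5 and 8.98 CPM against 21.5, 18.1 and 23.7 CPM. Its groups did not overlap, and the log2 change of -0.75 (SE 0.21), or 1.68-fold lower, did not pass the threshold over all genes.

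Ddit3 and Chac1, which respond to prolonged stress, went different ways in their estimates. Ddit3 (10:127290774-127296288, plus strand), encoding the factor CHOP, was the gene of the 10 with an estimate above 0. It was at 20.3, 15.9, 20.4 and 14.5 CPM in the CB-100 mice and at 10.6, 15.7 and 13.1 CPM in the sham mice. CB-100 replicate 4 lay below sham replicate 2, and the log2 change was 0.44 (SE 0.20). Ddit3 shares 68 exonic bases with Mars on the opposite strand, which had 308 to 985 counts per library. Chac1 (2:119351229-119354381, plus strand), an enzyme that degrades glutathione, was at 0.859, 0.731, 2.59 and 0.744 CPM against 1.82, 2.27 and 3.76 CPM. CB-100 replicate 3 stood above the other 3 CB-100 libraries and above sham replicates 1 and 2, and the log2 change was -1.09 (SE 0.51). Its values rest on 8 to 80 counts per library.

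**Figure D2:**
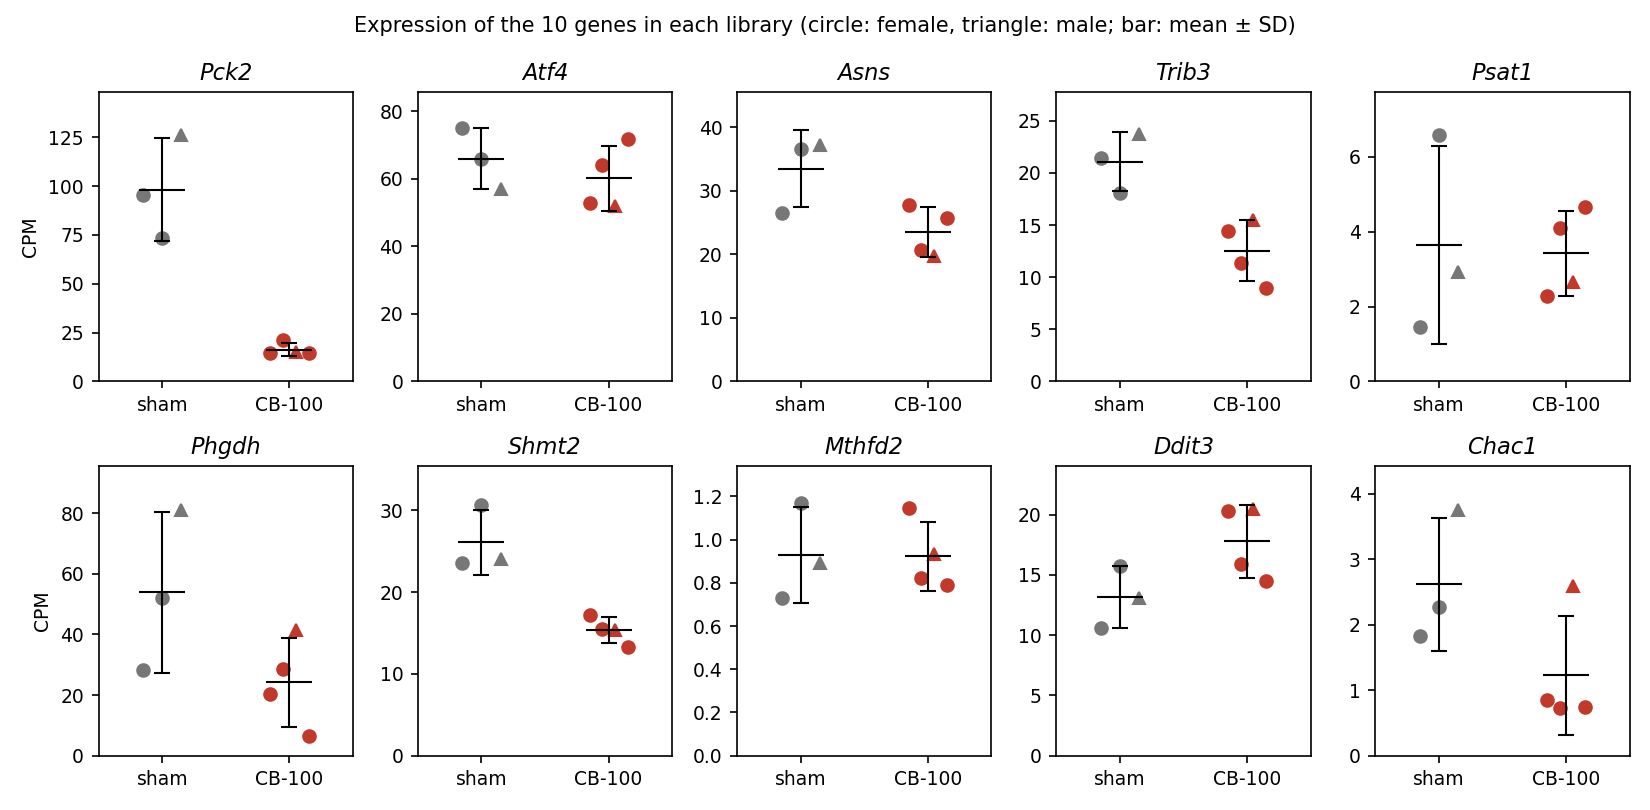
CPM of each of the 10 genes in every library, with the mean and SD of each group and its own axis from 0 for each gene; circles are females and triangles are males. The groups do not overlap for Pck2, Trib3 and Shmt2, and in both groups the male library is the highest for Trib3, Phgdh and Chac1.

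All 10 genes passed the filter on low counts. At an adjusted p under 0.05 over the 16823 tested genes (edgeR's quasi-likelihood test, Benjamini-Hochberg), 2 of the 10 were lower in the CB-100 mice, Pck2 and Shmt2, and 0 were higher. Over all tested genes, 3.7% passed in either direction, 2.28% lower and 1.42% higher. The groups did not overlap for 3 of the 10 genes, against 23.3% of all tested genes. The estimates of 9 genes were below 0 and that of 1 was above, with a median log2 change of -0.63, whereas 47.3% of all tested genes were below 0 and their median was 0.03. As the list was selected on this contrast, nothing is read from these counts. The call of Shmt2 ended when any 1 of CB-100 replicates 1 to 3 or any 1 of the sham libraries was left out. The call of Pck2 held without each of the 7 libraries in turn, with a log2 change between -2.77 and -2.39, and ended when only the 5 females were compared.

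Levels can be set against each other between genes only per length of exon. In the sham mice, CPM per kilobase of exon were highest for Atf4 at 28.0 ± 3.81 (SD, n = 3). Phgdh at 21.7 ± 10.6, Pck2 at 12.6 ± 3.39, Asns at 12.2 ± 2.20, Trib3 at 9.92 ± 1.34, Shmt2 at 8.38 ± 1.26 and Ddit3 at 7.67 ± 1.51 CPM per kilobase followed. Chac1 at 1.60 ± 0.62, Psat1 at 0.859 ± 0.622 and Mthfd2 at 0.267 ± 0.064 CPM per kilobase came last. The ranges of mean ± 1 SD of neighbours in this order overlapped, except at the gap between Ddit3 and Chac1. In the CB-100 mice, Atf4 was again first at 25.5 ± 4.07 (SD, n = 4), and Ddit3 was second at 10.4 ± 1.78 CPM per kilobase. Pck2 went from the third place in the sham mice to the seventh, at 2.08 ± 0.417 CPM per kilobase. There it stood apart by more than the summed SDs from Shmt2 above it, at 4.93 ± 0.515, and from Psat1 below it, at 0.806 ± 0.266 CPM per kilobase. Pck1 was at 701 ± 120 and 743 ± 245 CPM per kilobase in the CB-100 and sham mice, far above all 10. With the longest transcript in place of all exon bases, Pck2 kept the third place in the sham mice, while Ddit3 and Trib3 exchanged places. In the CB-100 mice, Shmt2 and Trib3 exchanged places.

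The genes also varied to different degrees between mice of 1 group. The coefficient of variation of Shmt2 was 10.5% in the CB-100 mice and 15.0% in the sham mice, and that of Atf4 was 16.0% and 13.6%. At the other end, Phgdh reached 60.3% and 49.2%, Chac1 73.7% and 38.8%, and Psat1 33.0% and 72.4%. In a model with group and sex, chosen after the values had been seen, the male-minus-female log2 difference was 1.31 (SE 0.33) for Chac1 and 1.10 (SE 0.46) for Phgdh. Neither passed over all genes (edgeR, adjusted p = 0.9996 for both), and 0 of the 10 genes were called, against 0.00594% of all tested genes. With 2 males, 1 in each group, the difference cannot be told apart from other features of those 2 mice.

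The genes with a profile most like that of Pck2 were ranked over 12743 protein-coding genes with a mean of at least 1 CPM, by the root mean square difference between centred log2 CPM in the 7 libraries. They were Ripk4 at 0.248, Adh1 at 0.306, Ngef at 0.325, Aldoc at 0.332 and Tspan4 at 0.360, as log2 differences. Tspan4 is uncertain, since its counts were not whole and Chid1 overlaps it. Other gene models also overlap Adh1 and Ngef, whose counts were whole. Ripk4, a receptor-interacting kinase, was at 3.72 to 4.46 CPM in the CB-100 mice and 16.4 to 31.6 CPM in the sham mice. Adh1, a class I alcohol dehydrogenase, was at 17.2 to 24.1 CPM against 65.1 to 113 CPM. In both, as in Pck2, replicate 2 was the lowest sham library. Since the measure includes the difference between the groups, any gene lower by a like factor scores well. The other 9 genes were farther from Pck2, from 0.941 for Chac1, 0.951 for Trib3 and 0.967 for Shmt2 to 1.52 for Psat1 and 1.54 for Ddit3.

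Genes of the surrounding pathways were read from the same test over all genes. Each count stands against 2.28% of all tested genes called lower, 1.42% called higher, 23.3% without overlap and 47.3% with an estimate below 0. These lists were also chosen with earlier results of these data known, so their counts, medians and adjusted p-values are a description. Among 19 genes that feed the integrated stress response, which include the eIF2 kinases and the eIF2 subunits and exchange factors, 1 passed lower and 0 higher. It was Eif2s1, the alpha subunit of eIF2, at 20.1 ± 0.523 CPM (SD, n = 4) against 33.8 ± 4.36 CPM (SD, n = 3), with a log2 change of -0.75 (SE 0.13; adjusted p = 0.032, edgeR). The kinases Eif2ak4, which senses uncharged tRNA, and Eif2ak3, which senses endoplasmic reticulum stress, had log2 changes of 0.05 (SE 0.13) and -0.03 (SE 0.14). The list median was -0.16, and 14 estimates were below 0.

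Among 22 other ATF4 target genes that were tested, 0 passed in either direction. The estimates were 11 below and 11 above 0, and the list median was -0.01. The lowest p-values belonged to Sqstm1, the autophagy receptor p62, with a log2 change of -0.53 (SE 0.15; adjusted p = 0.083, edgeR), and to Bbc3, the cell death gene encoding PUMA, with 1.21 (SE 0.39; adjusted p = 0.10, edgeR). Sqstm1 is uncertain, since its counts were not whole and Mrnip overlaps it. Of 10 tested amino acid transporters, 1 passed lower and 0 higher. Slc1a4, a carrier of neutral amino acids such as serine and alanine, was at 5.29 to 6.94 CPM in the CB-100 mice and 9.28 to 17.7 CPM in the sham mice, with a log2 change of -1.17 (SE 0.23; adjusted p = 0.037, edgeR).

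Cytosolic aminoacyl-tRNA synthetases, which charge tRNAs and include many ATF4 targets, had 3 of 20 genes lower and 0 higher, against 2.28% and 1.42% of all tested genes. Dars, for aspartate, was at 26.3 to 34.0 CPM in the CB-100 mice against 54.4 to 66.7 CPM in the sham mice, with a log2 change of -1.06 (SE 0.14; adjusted p = 0.020, edgeR). Hars, for histidine, and Tars, for threonine, had log2 changes of -0.66 (SE 0.13; adjusted p = 0.035, edgeR) and -0.63 (SE 0.13; adjusted p = 0.037, edgeR). Hars is uncertain, since its counts were not whole in any library and Hars2 overlaps it. The list median was -0.45 and 19 of the 20 estimates were below 0, against a median of 0.03 and 47.3% below 0 over all tested genes. The groups did not overlap for 13 of the 20 genes, against 23.3% of all tested genes.

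The other serine and folate enzymes held changes larger than that of Shmt2. Of the 24 tested genes reported here, 2 passed lower and 0 higher, against 2.28% and 1.42% of all tested genes, with a list median of -0.21. Slc25a32, the mitochondrial folate carrier, was at 34.8, 30.8, 30.1 and 26.0 CPM in the CB-100 mice and at 138, 63.0 and 96.3 CPM in the sham mice, with a log2 change of -1.71 (SE 0.24; adjusted p = 0.022, edgeR). Shmt1, the cytosolic counterpart of Shmt2, was at 27.1, 17.6, 17.5 and 13.4 CPM against 45.5, 55.2 and 54.6 CPM, with a log2 change of -1.45 (SE 0.22; adjusted p = 0.022, edgeR). Its counts were not whole in 3 libraries and Smcr8 overlaps it, so its value is uncertain. In both genes the groups were separate. Shmt1 was also the 1 gene called among 8 paralogs of the 10 genes, whose median log2 change was 0.14.

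**Figure D3:**
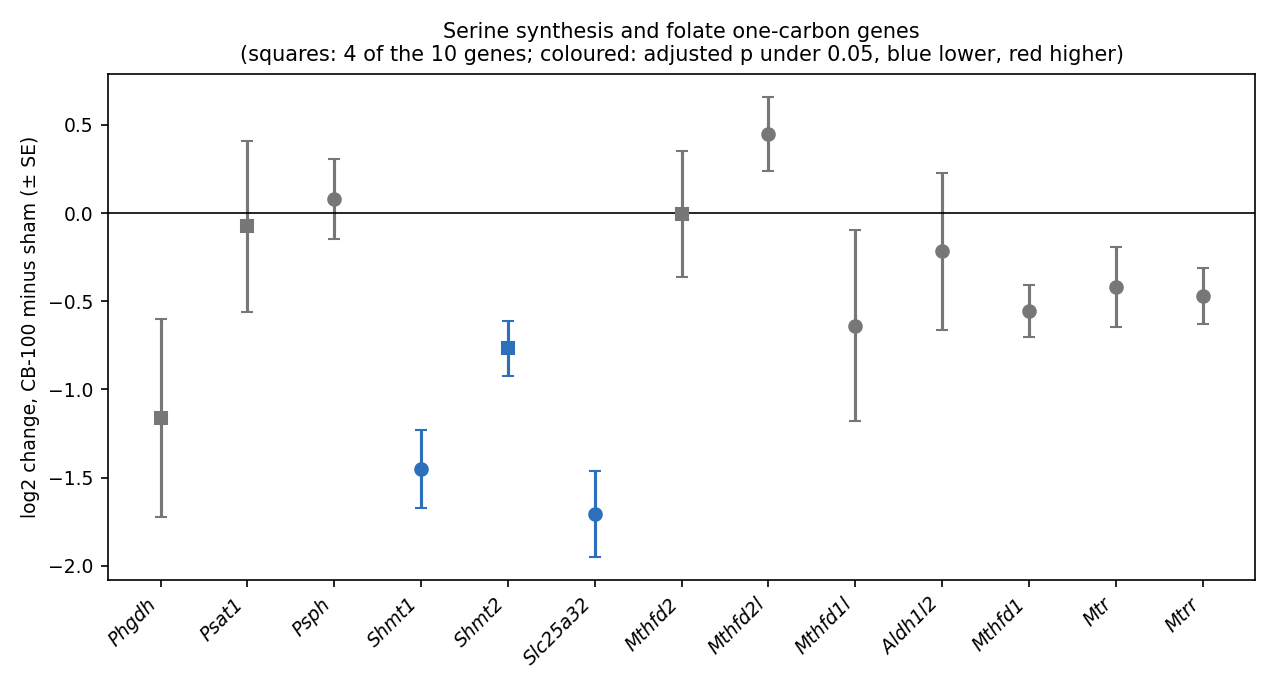
Log2 change, CB-100 minus sham, with its SE for serine synthesis and folate one-carbon genes, chosen for the plot after their values had been seen; squares are 4 of the 10 genes and coloured points passed an adjusted p under 0.05. Shmt1 (-1.45), Shmt2 (-0.77) and Slc25a32 (-1.71) lie below 0, while Phgdh, Psat1 and Mthfd2 have wide intervals.

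In phosphoenolpyruvate, pyruvate and aspartate metabolism, 3 of 31 tested genes passed lower and 0 higher, against 2.28% and 1.42% of all tested genes. The median of this list was -0.38. Mdh1, the cytosolic malate dehydrogenase, was at 88.0 to 129 CPM in the CB-100 mice and 267 to 333 CPM in the sham mice (log2 change -1.38, SE 0.18; adjusted p = 0.020, edgeR). Glul, glutamine synthetase, and Me3, a mitochondrial malic enzyme, had log2 changes of -1.56 (SE 0.30; adjusted p = 0.035, edgeR) and -1.14 (SE 0.24; adjusted p = 0.039, edgeR). All 3 overlap another gene, and the counts of Glul and Me3 were not whole, so that these values are uncertain. Of 21 chaperone genes of the ATF6 and XBP1 arms of the unfolded protein response, 1 passed higher and 0 lower. It was Sdf2l1, a chaperone cofactor of the endoplasmic reticulum, at 2.33 ± 0.378 CPM (SD, n = 4) against 0.912 ± 0.069 CPM (SD, n = 3), with a log2 change of 1.36 (SE 0.29; adjusted p = 0.043, edgeR). Its sham values, 0.833 to 0.962 CPM, were as near the limit of measurement as those of Mthfd2, so that its change is uncertain. Of 12 genes of the mitochondrial protein stress response, 0 passed, against 3.7% of all tested genes. Its 12 estimates were below 0, against 47.3% of all tested genes, and the median was -0.41. Clpx, the ATPase of a matrix protease, and Trap1, a matrix chaperone, came closest, with log2 changes of -0.88 (SE 0.23; adjusted p = 0.063, edgeR) and -0.72 (SE 0.21; adjusted p = 0.082, edgeR). Other gene models overlap Clpx and Trap1, although their counts were whole, so that these values are uncertain too.

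The calls among these neighbours depended on single libraries. Leaving out 1 library at a time, Mdh1 passed in 5 of 7 fits, and Dars, Slc25a32 and Shmt1 in 4 of 7. Eif2s1, Slc1a4 and Glul passed in 2 of 7, Hars, Tars and Me3 in 1 of 7, and Sdf2l1 in 0 of 7. No gene of these lists passed without sham replicate 1 or without sham replicate 3.

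**Figure D4:**
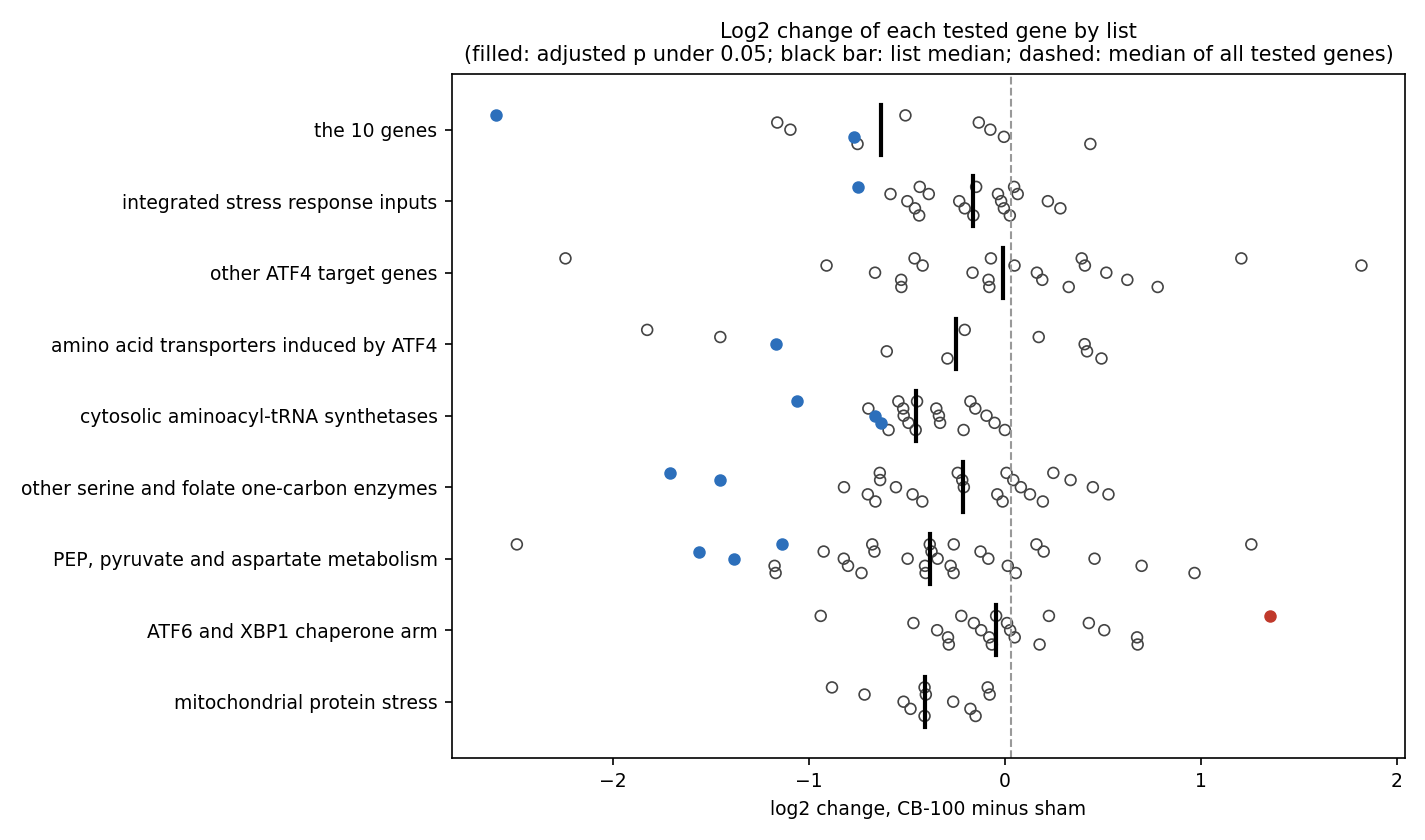
Log2 change, CB-100 minus sham, of each tested gene in the 10 genes and in 8 surrounding lists; filled points passed an adjusted p under 0.05, black bars are list medians and the dashed line is the median of all tested genes. Pck2 is the leftmost point of the 10 genes, the median of the 10 lies at -0.63 and that of the other ATF4 targets at -0.01.

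Of the markers of 9 cell types read beside the 10 genes, those of 8 types had 0 members called. Brown adipocyte markers were present in every library, with Ucp1, the uncoupling protein, at 449.8 to 2237 CPM in the CB-100 mice and 46.1 to 875 CPM in the sham mice. Within this list, only Dio2 was separate, at 43.6 to 377 CPM against 1.03 to 27.8 CPM. The other markers overlapped and went both ways. Elovl3, Otop1, Ppargc1a and Prdm16 had higher ranges, with Otop1 at 69.6 to 194 CPM against 37.8 to 152 CPM. Prdm16 was at 57.7 to 83.8 CPM against 51.8 to 70.1 CPM. Ppara, Zic1, Cidea and Cox8b had lower ranges. Zic1 was at 4.48 to 7.66 CPM against 6.73 to 13.6 CPM, Cidea at 317 to 634 against 488 to 643, and Cox8b at 136 to 293 against 221 to 344. The summed level of 7 adipocyte markers was 5876 to 6984 CPM against 8243 to 11822 CPM, without overlap and with 0 of 7 called. The separation was not shared by the list: Adipoq, Lipe and Pnpla2 were lower without overlap, whereas Fabp4, Pparg, Cidec and Plin1 overlapped, and Plin1 was at 600.1 to 888 CPM against 363 to 992 CPM. Summed fibroblast and preadipocyte markers were at 767 to 1556 CPM against 319 to 721 CPM, with 0 of 7 called. Most of that sum was Col1a1 and Col3a1. Dcn went the other way, at 48.0 to 78.7 CPM against 94.9 to 115.6 CPM, and Pdgfra, Lum, Dpt and Pi16 overlapped. Summed Schwann cell markers were at 134 to 161 CPM against 73.0 to 85.2 CPM, with 2 of 7 called. S100b, Mbp and Pmp22 did not overlap and the other 4 did. Macrophage (107 to 256 against 128 to 196 CPM) and skeletal muscle markers (325 to 2434 against 896 to 2008 CPM) overlapped between the groups. So did summed brown adipocyte (1480 to 3838 against 1247 to 2506 CPM), lymphocyte (3.72 to 6.58 against 4.04 to 8.45 CPM), endothelial (691 to 1533 against 572 to 952 CPM) and smooth muscle markers (590 to 1825 against 377 to 621 CPM). No marker of these lists was at 0 in every library, and in whole tissue fewer cells of a type and less RNA per cell cannot be told apart. The mitochondrially encoded share was 22.3% to 36.3% of counts in the CB-100 libraries and 14.3% to 22.8% in the sham libraries. The share of the non-coding RNAs 7SL and 7SK was 9.54% to 14.4% against 5.89% to 8.35%, without overlap. The protein-coding share was 76.2% to 80.0% against 83.0% to 86.5%, also without overlap. A fit without the mitochondrially encoded, 7SL and 7SK genes gave log2 changes of -2.615 (SE 0.21) for Pck2 and -0.78 (SE 0.15) for Shmt2. In that fit, 2 of the 10 genes were called. The part of the differences in cell type markers and RNA shares in the values of the 10 genes was not tested.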

How the data were processed

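The labels' protocols name a NovaSeq 6000 for sequencing brown adipose tissue RNA of 7 mice, and STAR 2.7.9a for alignment against Ensembl release 101. In the submitters' processing notes featureCounts 2.0.3, Salmon 1.5.2, edgeR and limma also appear, without roles. For the library kit, strandedness and counting options, the sources used here give nothing. The values deposited by the authors are expected counts for each gene, without normalization, and need not be whole.

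Of 55774 lines, 287 repeated an identifier and were removed; 99.5% of the 55487 genes matched GENCODE M21 (GRCm38), which gave coordinates, exon lengths and overlaps. Groups follow the treatment label, replicates are numbered in sample order, and a p-value covers the spread among these samples alone. Counts were rounded, filtered with filterByExpr, scaled by TMM (factors 0.755 to 1.25) and tested two-sided with edgeR 4.0.16 (robust quasi-likelihood) in R 4.3.3, with Benjamini-Hochberg adjustment over 16823 genes at 0.05. The SE is the log2 change over the square root of F. Biological variation was 28.0%, and 3 or 4 mice per group limit the precision. Log2 CPM used a prior count of 2.

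The 10 genes and all lists were chosen with earlier results of these data known, and 1 item of the serine and folate list is not reported here. Named were the 10 genes, Pck1, overlapping genes, up to 4 called genes with the largest change in each list or, without a call, the 2 with the smallest p, and the 5 protein-coding genes closest to Pck2. Eif2ak4, Eif2ak3 and single cell type markers were named after their values were seen. Alternatives covered scaling, filters, DESeq2 1.42.0, limma 3.58.1 voom, covariates and single libraries left out. Self-tests used simulated data.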

Additional observations from a re-analysis of the deposited data

Results flagged for a closer look

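Of 11 groups of 4 libraries examined, 1 for each of the 10 genes and Pck1, 2 held a library far from the others, judged by its gap to the nearest library over the range of the group against Dixon's 95% critical value. Chance flags about 1 in 20 such groups. Pck2 was at 21.1 CPM in CB-100 replicate 2, with a gap of 0.862 of the range; that library remained below all sham libraries. Chac1 was at 2.59 CPM in CB-100 replicate 3, a male, with a gap of 0.931 of the range. Without that library the log2 change of Chac1 was -1.74 in place of -1.09.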

How the results depend on the processing

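Against 622 genes called in the whole table, DESeq2 called 1968, limma voom with quality weights 1150, a fit with sex 238, one with a skeletal muscle score 9, the 5 females alone 0 (edgeR, with 2578 at an unadjusted p under 0.05), and fits without 1 library from 8 to 610. Of the 10 genes, 2 were called; with sex in the model or with the muscle score it was 1, in the females 0, and without 1 library 1 to 2. Of the genes on the surrounding lists, 11 were called; DESeq2 called 38, voom 24, a fit with no filter on low counts 17, the fit with sex 4, the females 0, the fit with the muscle score 0, and fits without 1 library from 0 to 16. The causes were not tested. Pck2 passed in 16 of 17 alternatives (log2 change -2.77 to -2.36) and Shmt2 in 8 of 17 (-0.84 to -0.64); with the muscle score Shmt2 was at -0.74 (SE 0.21) and not called. Trib3 passed in 2 of 17. Psat1 ran from -0.47 to 0.65, the latter without sham replicate 2, and Phgdh from -1.55 to -0.66. Mthfd2 left the test under a filter of 1 CPM in 3 libraries. Low counts limit Mthfd2, Chac1 and Psat1, and Sdf2l1 among the surrounding lists. No paired analysis was possible because the groups share no animal codes and replicate numbers follow sample order.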
